A study of Mus musculus with 16 samples.

Results

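Mouse embryonic stem (ES) cells of KO genotype were compared with WT ES cells 24 h after gamma irradiation. The comparison rests on 4 of the 16 arrays of the study, chosen by their labels alone as the arrays of the 24 h time point: 2 KO arrays and 2 WT arrays. The KO cells were homozygous for an inactivated allele and the WT cells carried 2 normal copies, and all cells were ES lines of mixed 129/C56Bl/6 background, as the labels spell it, that had been derived from single blastocysts of a heterozygous intercross. They grew with LIF on mitomycin-treated embryonic fibroblasts, which were allowed to settle out on gelatin for 1 h before RNA was taken. Growing cells and cells 2 h after irradiation, with 3 arrays of each genotype, served as further reference states. The labels give a dose of 8 Gy at 2 h, and that at 24 h is not given in these sources. No group of unirradiated cells kept for the same 24 h was analysed here. The samples of a group are numbered as experiments, with no word on separate cultures or lines, so the p-values cover the spread among these samples alone, and that spread may be technical. The inactivated gene itself was not analysed here, so genotypes rest on the labels.

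ES cells renew themselves under LIF and keep the potential to form the embryo proper, held by a network around Pou5f1, Sox2 and Nanog. The primitive endoderm is the extraembryonic lineage that splits from the epiblast in the blastocyst under FGF and ERK signalling, is driven by Gata6, Gata4 and Sox17, and later forms visceral and parietal endoderm. Gamma rays break DNA, which activates p53 and its targets, such as the cell cycle inhibitor gene Cdkn1a, and halts cells at checkpoints. The series title concerns differentiation of the KO cells towards primitive endoderm, and the 24 h arrays allow the genotypes to be compared a day after damage.

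ES cell markers were high on all 4 arrays. The summed intensity of 8 markers was 10574 and 9321 in KO and 10588 and 9298 in WT, so the genotypes overlapped. The sum of 24 fibroblast markers, which feeder cells would bring, was 3460 and 4059 in KO and 3899 and 3755 in WT, with overlap as well. In bulk RNA, fewer cells of a type and less RNA per cell cannot be told apart. Intensities are in scaled units, with array medians of 37.4 and 33.7 in KO and 34.7 and 34.2 in WT. Differences are KO minus WT of the mean log2(intensity + 16), given ± SE from limma, and adjusted p-values are limma's with Benjamini-Hochberg adjustment. Because 16 was added, the log2 difference understates the change of dim genes. Only 1 hybridisation run, run 3, held both genotypes at 24 h (replicate 2 of each). Replicate 1 of KO lay in run 2 and replicate 1 of WT in run 1.

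Few transcripts passed the test at 24 h. Of 17736 probe sets tested, 11 differed at an adjusted p under 0.05 (0.062%), 5 higher in KO (0.0282%) and 6 lower (0.0338%), and 1701 had an unadjusted p under 0.05. A gene name was available for 9 of the 11, which belong to 8 genes; the other 2, both lower in KO, had no single gene symbol and are not described. Higher in KO were Supt16, Srgn, Ccnb1ip1, Cubn and Nras, and lower were Trh, Klhl13 and Rpgrip1. The count varied with the fit. It was 3 with only the 4 arrays at 24 h, 5 without the arrays numbered replicate 3, 25 after quantile normalization and 23 with the hybridisation run as a block. With the replicate number as a block it was higher than any of these, as given in the section on processing. Without WT replicate 2 it was 20, of which 5 were among the 11. In growing cells 44 probe sets differed (22 higher, 22 lower) and at 2 h 70 (35 higher, 35 lower), each with 3 arrays per genotype against 2 at 24 h. The median absolute difference between the genotype means at 24 h was 0.18 over the probe sets. Means of 2 arrays vary less than single arrays, so this value is not like those that follow. Between single arrays the median was 0.25 for the 2 KO replicates and 0.23 for the 2 WT replicates. For KO against WT it was 0.24 in replicate 1 and 0.22 in replicate 2.

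**Figure D1:**
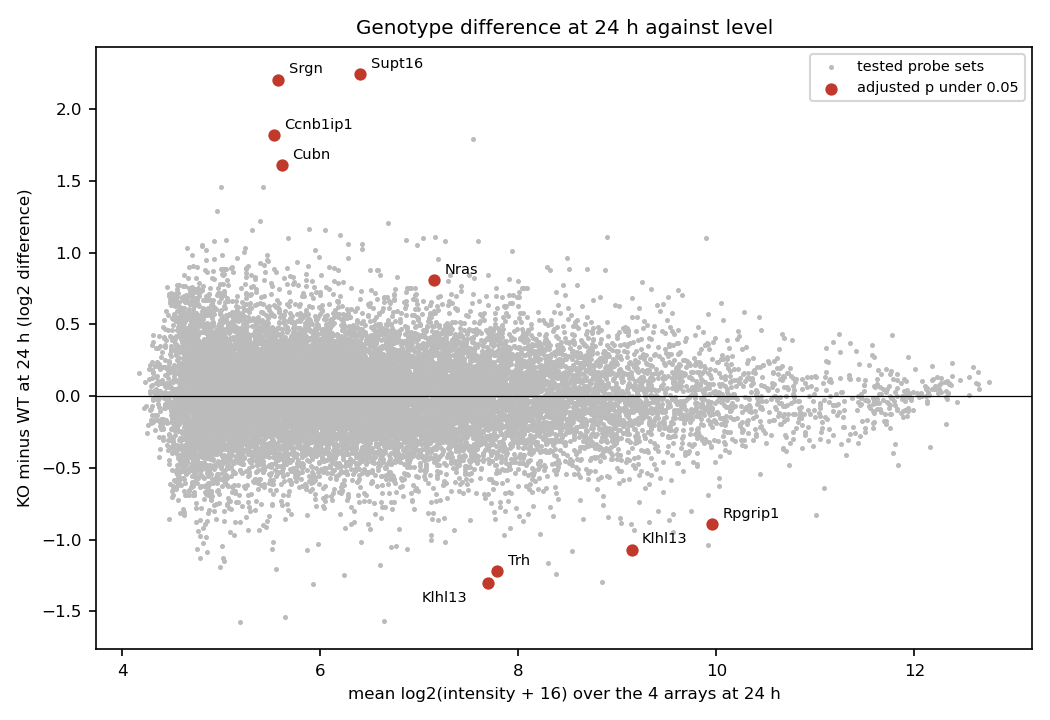
Difference between KO and WT at 24 h (log2, vertical) against the mean log2(intensity + 16) of the 4 arrays (horizontal), 1 grey point per tested probe set. Red points are the 9 called probe sets with a gene name. Supt16, Srgn, Ccnb1ip1 and Cubn lie above 1.5 at low to middle levels, and the called probe sets of Klhl13, Trh and Rpgrip1 lie near or below -1. The 2 called probe sets with no gene name are not drawn.

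The promoters of 4 called genes are shown because 3 of them lie on 1 stretch of chromosome 14, where neighbours moved in opposite directions, and Srgn had the largest difference in the primitive endoderm list. Each runs 5′ to 3′ on the gene's strand from 250 bases before to 50 bases after the annotated start (RefSeq, GRCm38.p6). Capitals mark matches on either strand to 8 searched motifs.
Supt16, chr14:52197190-52197489, minus strand: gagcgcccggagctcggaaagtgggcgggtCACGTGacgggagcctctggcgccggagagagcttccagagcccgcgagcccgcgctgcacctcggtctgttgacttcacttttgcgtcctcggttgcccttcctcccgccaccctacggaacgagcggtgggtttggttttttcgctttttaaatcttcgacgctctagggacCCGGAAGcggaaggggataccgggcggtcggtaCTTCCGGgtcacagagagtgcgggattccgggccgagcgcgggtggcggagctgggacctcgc
Rpgrip1, chr14:52110653-52110952, plus strand: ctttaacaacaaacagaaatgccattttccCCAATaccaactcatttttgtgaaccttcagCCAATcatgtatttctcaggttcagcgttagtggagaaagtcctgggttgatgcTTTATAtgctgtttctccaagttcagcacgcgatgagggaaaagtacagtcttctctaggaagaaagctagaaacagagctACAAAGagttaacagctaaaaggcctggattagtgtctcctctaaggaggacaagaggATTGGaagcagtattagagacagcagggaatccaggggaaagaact
Ccnb1ip1, chr14:50795679-50795978, minus strand: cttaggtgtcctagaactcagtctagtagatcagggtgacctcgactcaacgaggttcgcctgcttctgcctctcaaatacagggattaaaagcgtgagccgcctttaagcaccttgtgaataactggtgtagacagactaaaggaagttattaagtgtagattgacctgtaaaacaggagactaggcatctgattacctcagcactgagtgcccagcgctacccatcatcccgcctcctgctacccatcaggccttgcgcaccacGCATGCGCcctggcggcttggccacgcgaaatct
Srgn, chr10:62527396-62527695, minus strand: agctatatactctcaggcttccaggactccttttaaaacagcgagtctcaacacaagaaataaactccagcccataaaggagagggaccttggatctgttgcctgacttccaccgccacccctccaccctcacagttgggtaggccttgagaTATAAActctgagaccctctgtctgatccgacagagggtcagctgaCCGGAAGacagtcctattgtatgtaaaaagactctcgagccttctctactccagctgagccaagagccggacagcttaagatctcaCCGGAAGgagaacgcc

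Each motif was searched on both strands. The TATA box was searched as TATAAA and also as the form TATATAA, the E-box as CACGTG and the ETS core as CCGGAAG. The GATA motif was searched as AGATAA and also as the form TGATAA, and the SOX motif as ACAATG and also as the form ACAAAG. The CRE was searched as TGACGTCA, the CCAAT box as CCAAT and the NRF1 core as GCATGCGC. The Supt16 promoter held an E-box and 2 ETS cores, and Srgn a TATA box and 2 ETS cores. Rpgrip1 held a TATA box, a SOX match and 3 CCAAT boxes, and Ccnb1ip1 the NRF1 core. Of all 27025 promoters of this length, 9.14% held an ETS core, 7.24% an E-box, 15.7% a TATA box, 28.8% a SOX match, 38.0% a CCAAT box and 2.8% the NRF1 core. GATA was found in 18.9% and CRE in 1.85%, and neither in these 4. Promoters of all 8 called genes were matched, and no motif was found in that of Cubn. These matches describe letters only.

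Supt16 encodes a subunit of FACT, the histone chaperone that lets polymerase pass through nucleosomes. Its called probe set stood at 181 and 157 in KO and at 21.5 and 24.3 in WT, a difference of 2.24 ± 0.18 (adjusted p = 9.66e-07). The groups were far apart, and the difference was 2.10 within run 3. Another, brighter probe set of Supt16 read 723 and 688 in KO and 468 and 401 in WT. There the difference was 0.68 ± 0.22 and did not pass (adjusted p = 0.322), so the probe sets differed in size but not in direction. Of the named calls, that of Supt16 was the only one kept under all 15 other fits.

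Ccnb1ip1, a ubiquitin ligase known from meiotic crossing-over, read 58.9 and 84.2 in KO and 5.23 and 12.4 in WT. The difference was 1.82 ± 0.22 (adjusted p = 0.000413), also 1.82 within run 3. In growing cells the gene was at 100, 92.6 and 88.4 in KO against 14.7, 7.08 and 7.59 in WT, so the WT level lay near or below the filter of 11.9 in both states. The size of the difference therefore follows the added constant, from 0.89 to 2.97 over the fits.

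Rpgrip1, which encodes a scaffold protein of the photoreceptor cilium, was lower, at 611 and 829 in KO against 1306 and 1368 in WT (-0.89 ± 0.16, adjusted p = 0.0435). Another probe set of the gene, much dimmer, had 30.02 and 22.4 in KO against 41.1 and 27.4 in WT (-0.25) and did not pass. The call of Rpgrip1 was lost without KO replicate 1 (-0.68, adjusted p = 0.156), WT replicate 1 (-0.93, adjusted p = 0.194) or WT replicate 2 (-0.86, adjusted p = 0.0831). Rpgrip1 and Supt16 lie next to each other on chromosome 14 on opposite strands, and their annotated spans overlap by 921 bases. How the array's probe sets lie on that overlap was not analysed here. Ccnb1ip1 lies nearby, with 11 tested genes between it and Rpgrip1, so 3 of the 8 called genes were on this chromosome, which held 355 of the 10252 tested genes.

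The genes between and around them did not follow a common direction. Of the 10 nearest tested neighbours of Ccnb1ip1, 0 passed, 3 had both KO arrays above both WT arrays and 2 had both below, close to the shares over all tested genes (18.9% above and 15.6% below). Their differences ran from -0.62 for Armh4 to 1.22 for Otx2. The neighbour Ttc5, next to Ccnb1ip1, stood at 0.49. Rpgrip1 and Supt16 are called neighbours of each other, and no other tested neighbour of a called gene passed.

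**Figure D2:**
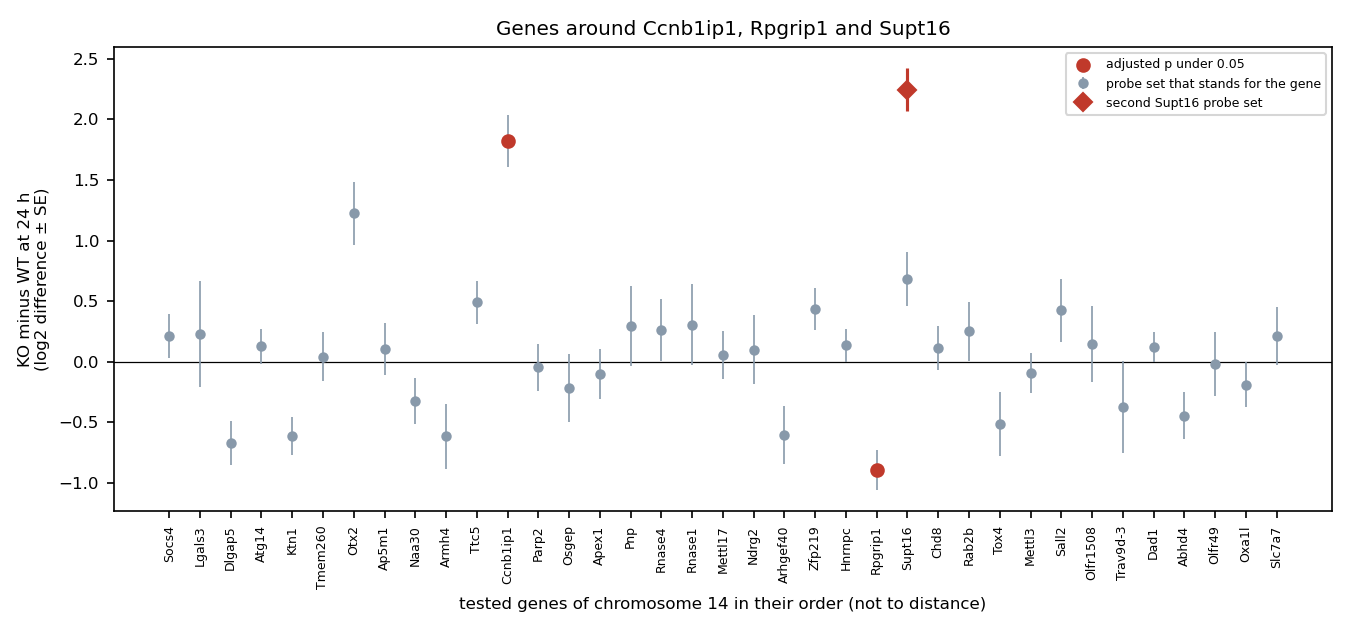
KO minus WT at 24 h (log2 difference ± SE, vertical) for tested genes around Ccnb1ip1, Rpgrip1 and Supt16, in their order on chromosome 14 and not to distance. Grey points are the probe set that stands for a gene, and red points passed at an adjusted p under 0.05. The diamond, labelled second in the legend, is the called Supt16 probe set at 2.24. The brighter Supt16 probe set, which did not pass, is the grey point. Between Ccnb1ip1 and Rpgrip1 the 11 other genes scatter around 0.

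Srgn, which encodes the proteoglycan serglycin, read 146 and 48.7 in KO and 8.38 and 4.17 in WT. The difference was 2.21 ± 0.35 (adjusted p = 0.0152), and 1.68 within run 3. As WT lay below the filter, the size follows the added constant, with 1.13 for an added 64 and 3.62 for an added 1. Both KO arrays were higher than both WT arrays, but the KO arrays lay far from each other. Without KO replicate 1 the difference was 1.55 and no longer passed (adjusted p = 0.121), and it also missed without WT replicate 1 (2.34, adjusted p = 0.0808) or WT replicate 2 (2.07, adjusted p = 0.0633). Cubn encodes cubilin, an endocytic receptor of the visceral endoderm. It read 91.2 and 52.2 in KO and 10.5 and 13.5 in WT on the called probe set (1.61 ± 0.24, adjusted p = 0.00866). A second probe set read 78.1 and 37.6 in KO and 6.06 and 14.2 in WT (1.46 ± 0.29, adjusted p = 0.0634). On both probe sets the KO arrays lay above the WT arrays, and without KO replicate 1 the call of Cubn was lost as well (1.29, adjusted p = 0.0958), as it was without WT replicate 1 (1.53, adjusted p = 0.106). With an added 64 or 1 the difference of Cubn was 0.82 or 2.44.

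Nras encodes a RAS family GTPase that activates the ERK cascade. Its called probe set read 164 and 180 in KO and 92.9 and 89.7 in WT (0.81 ± 0.14, adjusted p = 0.0426). Another gave 194 and 218 in KO against 112 and 123 in WT (0.73, adjusted p = 0.322). The one with the highest mean gave 199 and 222 in KO against 151 and 172 in WT (0.35, adjusted p = 0.618). The groups did not overlap on any of the 3 probe sets, while the call was lost in 9 of 15 fits, including each that left out 1 array at 24 h (adjusted p from 0.0717 to 0.208).

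Trh, the precursor gene of thyrotropin-releasing hormone, was lower at 151 and 110 in KO against 294 and 351 in WT (-1.22 ± 0.19, adjusted p = 0.0122). It lost its call without KO replicate 2 (-1.02, adjusted p = 0.158) or WT replicate 2 (-1.10, adjusted p = 0.0593). Klhl13, an X-linked gene for a substrate adaptor of cullin ligases, was lower on both of its probe sets. One read 100 and 133 in KO and 243 and 391 in WT (-1.30 ± 0.21, adjusted p = 0.0152), the other 329 and 426 in KO and 712 and 909 in WT (-1.07 ± 0.19, adjusted p = 0.0426). The groups did not overlap for either gene. Of the Klhl13 probe sets, the dimmer one lost its call without KO replicate 1 (adjusted p = 0.112) or WT replicate 2 (adjusted p = 0.0831), and the brighter one also without WT replicate 1 (adjusted p = 0.0682).

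**Figure D3:**
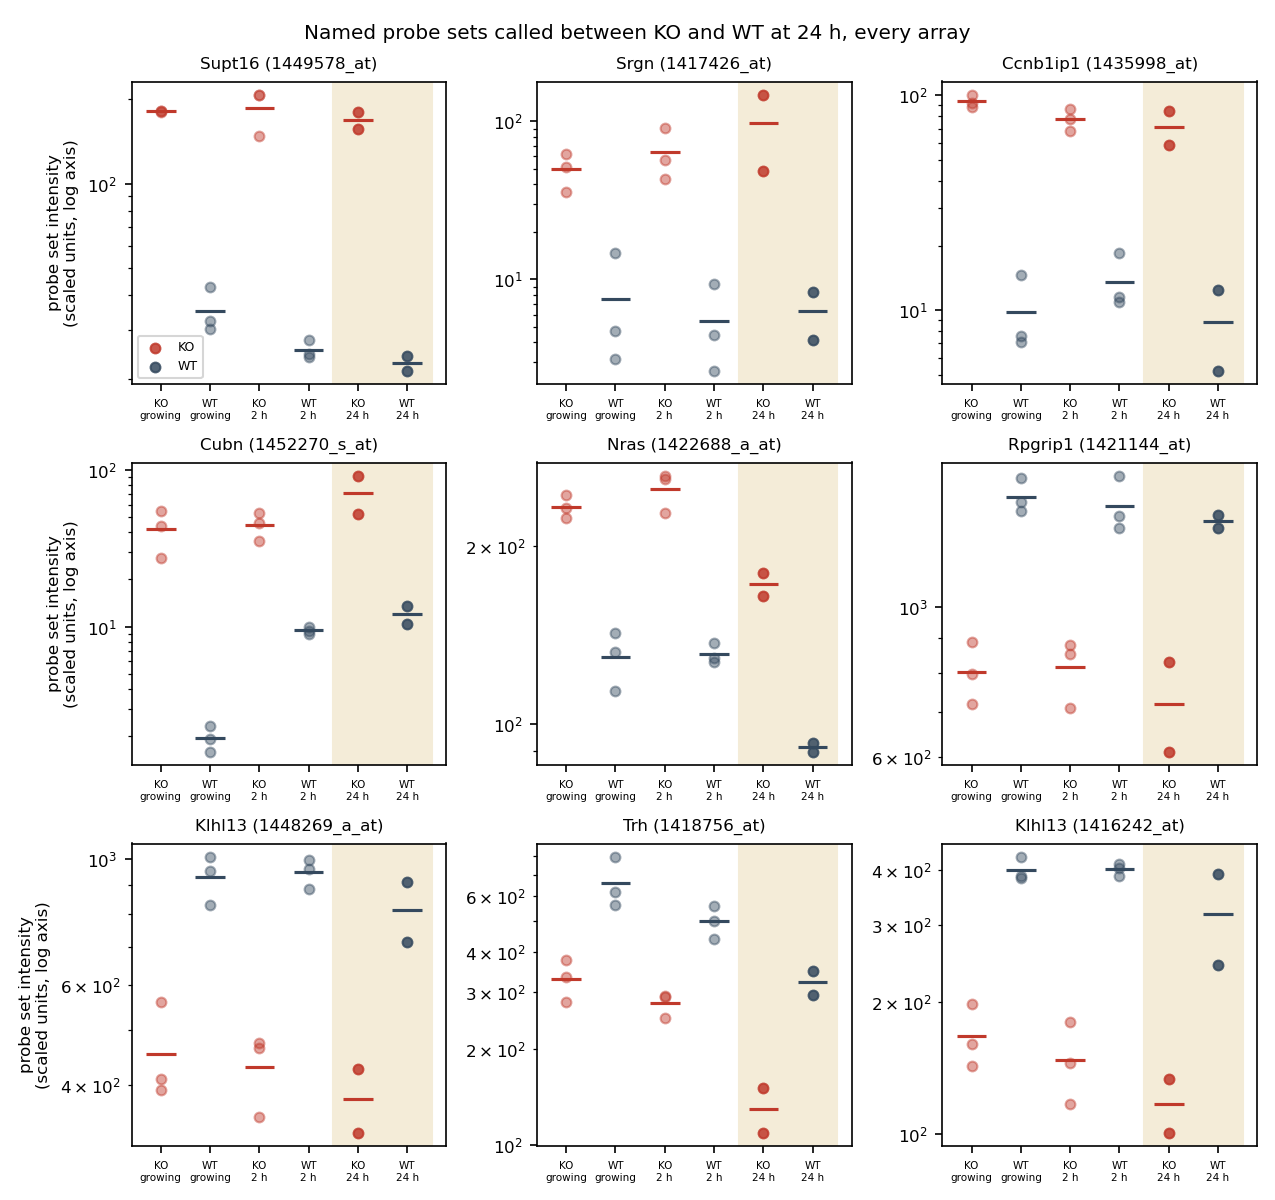
Intensity (scaled units, log axis) of the 9 called probe sets with a gene name on every array, KO (red) left of WT (dark) in each state (growing, 2 h, 24 h); horizontal bars are group means and the shaded columns are 24 h. For example, Supt16 reads 157 to 181 in KO and 21.5 to 24.3 in WT at 24 h, and each panel keeps its direction in all 3 states.

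Each of the 8 called genes had the same direction in growing cells and at 2 h. Their called probe sets also passed limma's test in both of these states, in the same fit. The largest adjusted p was 0.0328 in growing cells (Srgn) and 0.023 at 2 h (Trh), so these genotype differences were not particular to 24 h. For Supt16 the difference was 1.96 in growing cells and 2.28 at 2 h, and for Trh it was -0.95 and -0.81. None of the called probe sets passed in the test of a change in genotype difference between growing cells and 24 h. In the interaction test of 24 h against growing cells 0 of 17736 probe sets were called (0%), with 851 at an unadjusted p under 0.05. In the test of 24 h against 2 h 0 were called (0%), with 898 at an unadjusted p under 0.05. These are limma tests, and a p that misses the threshold does not show that the differences were equal. Without WT replicate 2 at 24 h, 1 probe set was called in the test against growing cells.

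A wider set of genes was drawn with an unadjusted p under 0.01 and no overlap between KO and WT at 24 h. It held 293 of 10252 genes (2.86%), and 286 without those already called, 149 higher and 137 lower. In growing cells, whose genotype difference did not enter the choice although their arrays shared its filter and variance estimate, 238 of the 286 (83.2%) had the same sign, against 60.0% of all tested genes. At 2 h 242 (84.6%) did, against 62.5% of all genes. The median difference, taken in the 24 h direction, was 0.68 at 24 h, 0.27 in growing cells and 0.30 at 2 h. The value at 24 h is set by the choice itself.

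Among these genes, none of which passed, the largest on the KO side was Dnmt3a, a de novo DNA methyltransferase. It read 176 and 618 in KO and 51.9 and 133 in WT (1.80 ± 0.40, adjusted p = 0.142). The value hung on single arrays: it was 0.93 without KO replicate 2, 1.23 without WT replicate 1, and 2.66 without KO replicate 1. Its other 4 probe sets gave 0.31 to 1.08. Otx2, a homeobox regulator of the primed epiblast, read 56.8 and 40.8 in KO and 16.2 and 7.54 in WT (1.22 ± 0.26, adjusted p = 0.102). Inhbb, an activin subunit, read 165 and 118 in KO against 63.0 and 41.8 in WT (1.21), and another probe set gave 0.27. Parp12, an ADP-ribosyltransferase, read 81.4 and 83.8 in KO against 25.2 and 31.3 in WT (1.16 ± 0.22, adjusted p = 0.0634).

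The kinase gene Stk10 (1.16) differed from these in that its difference was -0.27 in growing cells and -0.51 at 2 h. Cdc26, a subunit of the anaphase-promoting complex, had 1.11 at 24 h, -0.32 in growing cells and 0.52 at 2 h. The FGF-induced ETS factor gene Etv4 (1.09) and Dab2, an endocytic adaptor of the endoderm (1.06), were positive in all 3 states. The remaining genes on the KO side were Gm6607 (1.03), Krtap5-1 (0.99), Fmo2 (0.98) and Nt5dc3 (0.97), each of negative sign in growing cells. The WT arrays of Stk10 and Fmo2 lay below the filter at 24 h, so the sizes of their differences follow the added constant.

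On the side lower in KO stood Arhgap6 and the ribosomal protein gene Rpl39l, both at -1.57. Arhgap6 read 7.16 and 3.40 in KO against 40.4 and 54.5 in WT, and its other 2 probe sets gave -0.86 and -0.80. Its KO arrays lay below the filter, so its size and rank follow the added constant (-0.68 with an added 64, -3.00 with 1). Rpl39l read 72.2 and 22 in KO against 166 and 146 in WT, with -0.96 without KO replicate 2. Next came Cyba, a subunit of NADPH oxidase (-1.24), Elavl2, an RNA-binding protein gene (-1.18), the dynamin gene Dnm3 (-1.15) and Trpt1 (-1.13). Cyba was at -0.54 without WT replicate 1 and at -1.94 without WT replicate 2. Dnm3 was at -0.70 without WT replicate 1.

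The water channel gene Aqp2 (-1.04), the interferon-induced Ifitm1 (-1.04) and Ifi35 (-0.98), the cell-surface proteoglycan gene Gpc3 (-1.01), the inhibitor gene Id2 (-1.01) and the sodium pump regulator gene Fxyd6 (-0.97) completed this set. Elavl2 read 46.4 and 50.6 in KO against 106 and 158 in WT (adjusted p = 0.0634), and its other 4 probe sets gave -0.60 to -0.033. Gpc3 read 52.7 and 36.1 in KO against 112 and 98.2 in WT (adjusted p = 0.0634). Dnm3, Trpt1 and Aqp2 had positive differences at 2 h (0.59, 0.39 and 0.21). The KO arrays of Dnm3, Trpt1, Aqp2 and Ifi35 lay below the filter of 11.9, so the sizes and ranks of their differences also follow the added constant.

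**Figure D4:**
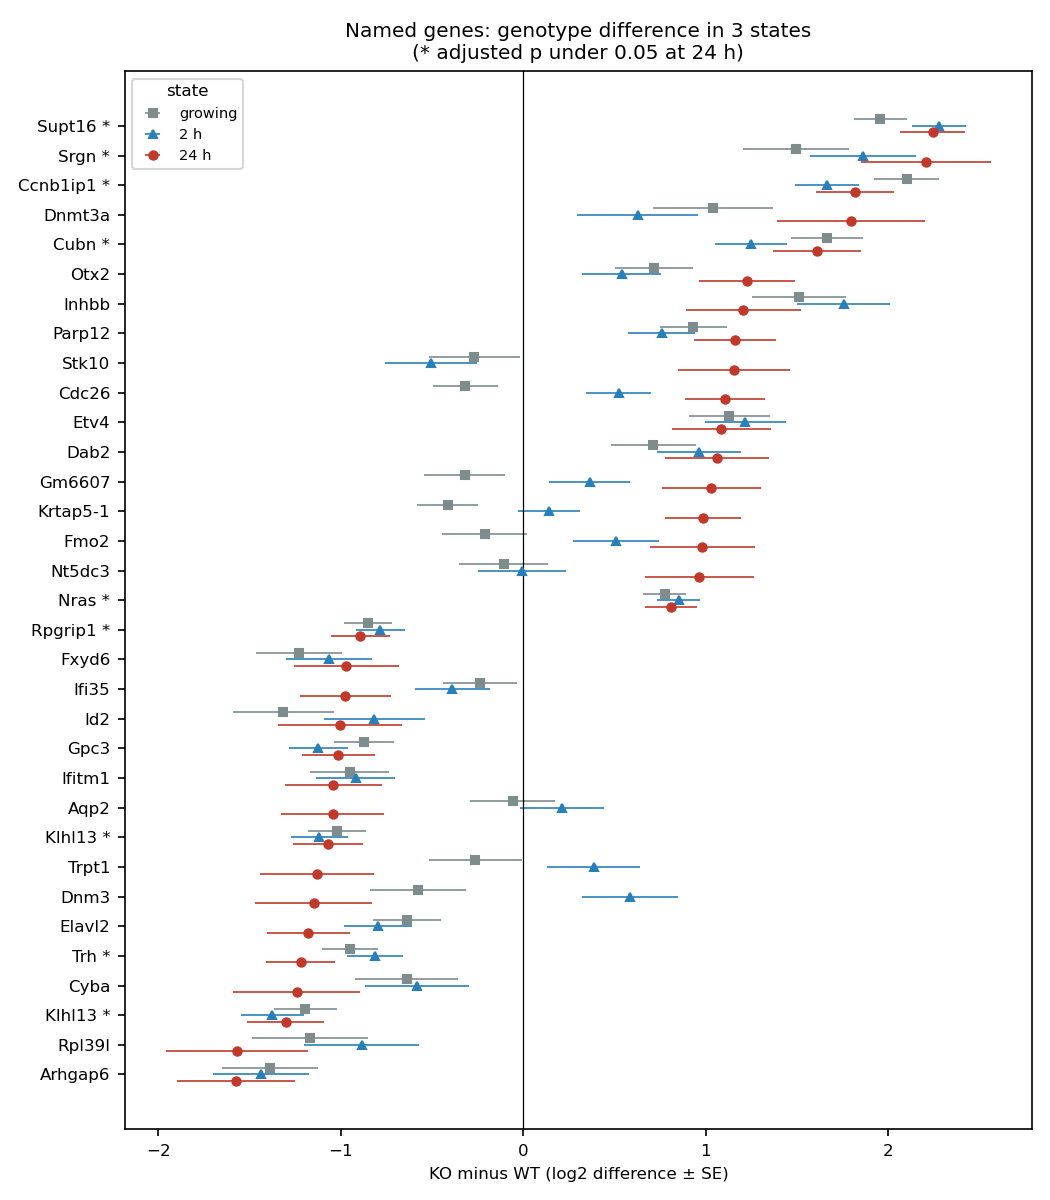
KO minus WT (log2 difference ± SE, horizontal) of the called genes and the 24 genes next to them, in growing cells (squares), at 2 h (triangles) and at 24 h (circles); an asterisk marks an adjusted p under 0.05 at 24 h. Called genes keep their side in all states, while Stk10 lies at 1.16 at 24 h and at -0.27 in growing cells.

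The primitive endoderm list had 22 tested genes of 23. Srgn and Cubn were higher, 0 were lower, and the other 20 did not pass. Of all 10252 tested genes, 3 were called higher and 3 lower on the probe set that stands for the gene. KO lay above WT on both arrays for 11 (50%) and below for 2 (9.09%), where 18.9% and 15.6% of all tested genes did. Srgn and Cubn count among the 11. This list and those below were chosen with earlier results of these data known, so such shares describe their members and are not a test. The median difference was 0.23, against 0.0063 over all genes. It was 0.078 within run 3, and 0.12 with the run as a block. Without WT replicate 1 it was 0.091.

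The lineage regulators themselves were dim. Gata6 read 49.0 and 31.7 in KO and 17.6 and 22.7 in WT (0.63 ± 0.26, adjusted p = 0.467). Gata4 read 39.2 and 34.5 in KO and 11.9 and 19.5 in WT (0.74 ± 0.26, adjusted p = 0.360). Neither group pair overlapped, and neither gene passed. Sox17 (0.48), Sox7 (0.42) and the receptor gene Pdgfra (0.54) also had KO above WT on both arrays. Sox7 passed the filter of 11.9 only through its KO groups (24 h means of 17.9 in KO and 9.39 in WT). The same holds for Srgn (97.4 and 6.27), so the direction of both is partly set by the filter. Dab2 read 161 and 71.0 in KO and 40.3 and 46.9 in WT (1.06, adjusted p = 0.246), with 0.34 and 0.89 on its other probe sets. Its difference was 0.55 without KO replicate 1 and 0.47 within run 3. That of Gata6 was 0.40 without KO replicate 1 and 0.30 within run 3. The endocytic receptor gene Lrp2 had 0.59, and Col4a1, a basement membrane collagen gene, had 0.64 with overlapping arrays. Differences were positive for 18 of the 22 tested genes of the primitive endoderm list (81.8%), against 50.9% of all genes. The lowest of the list was that of Nid2, at -0.48 with overlapping arrays. The parietal endoderm list had a median of -0.0064 over 12 tested genes, with KO above WT for 2 (16.7%) and below for 2 (16.7%). The visceral endoderm list had 0.13 over 8 tested genes of 17, with KO above WT for 2 (25%) and below for 1 (12.5%). No gene of either list passed. Over all tested genes the shares were 18.9% above and 15.6% below.

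Genes of the FGF and ERK pathway, which drives this lineage choice, had a median of 0.32 over 19 tested genes, and none passed on the probe set counted. KO lay above WT for 7 (36.8%) and below for 1 (5.26%), against 18.9% and 15.6% of all tested genes. Lists count the probe set of highest mean for each gene, so Nras, a member, counts here as not passing and Supt16 likewise among chromatin genes, although another probe set of each was called. Beside Etv4, members of the list with positive differences included Phlda1 (0.71), the feedback inhibitor gene Spry4 (0.69), the receptor gene Fgfr3 (0.50) and the adaptor gene Grb2 (0.37). The Nodal, activin and BMP list had a median of -0.054 over 31 genes. KO lay below WT for 10 (32.3%) and above for 5 (16.1%), against 15.6% and 18.9% of all tested genes. The largest difference of the list was that of Inhbb, at 1.21. Id2, a BMP target, read 77.4 and 87.7 in KO against 150 and 220 in WT, and Lefty1, a Nodal inhibitor, read 205 and 190 in KO against 428 and 374 in WT (-0.96). None of these passed.

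Pluripotency genes had a median of -0.052 over 25 tested genes, none called. KO lay above WT for 3 (12%) and below for 5 (20%), against 18.9% and 15.6% of all tested genes. Pou5f1 read 1029 and 1031 in KO against 873 and 935 in WT (0.19), and Sox2 read 753 and 595 in KO against 721 and 765 in WT (-0.15). Nanog read 871 and 500 in KO against 941 and 969 in WT (-0.52 ± 0.20, adjusted p = 0.418), with -0.13 without KO replicate 2 and -0.91 without KO replicate 1. Klf4 (0.31) and Zfp42 (-0.32) did not pass. The sign of Sox2 and Klf4 turned when a KO array was left out, and that of the list's median without KO replicate 2 (0.019).

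Polycomb genes encode the complexes that place repressive marks on histones. Of 23 tested genes, none passed, and the median was 0.19. KO lay above WT on both arrays for 13 (56.5%) and below for 1 (4.35%), against 18.9% and 15.6% of all tested genes. Kdm2b, which brings a variant complex to CpG islands, read 319 and 326 in KO against 142 and 223 in WT (0.80 ± 0.20, adjusted p = 0.217). Jarid2 read 698 and 1193 in KO against 469 and 668 in WT (0.69), and the core subunit gene Suz12 read 516 and 593 in KO against 381 and 381 in WT (0.52). Epop (0.75), Pcgf2 (0.68) and Mtf2 (0.48) lay on the same side. The median of this list was 0.16 in growing cells and 0.16 at 2 h, and 0.25 within run 3. The chromatin remodelling and FACT list had a median of 0.18 over 21 genes, with KO above WT for 7 (33.3%) and below for 0, against 18.9% and 15.6% of all genes.

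Germline genes had a median of 0.31 over 16 tested genes. Ccnb1ip1 was higher and no other member passed, where 3 of all 10252 tested genes were called higher and 3 lower. KO lay above WT for 7 (43.8%), Ccnb1ip1 among them, and below for 3 (18.8%). Of all tested genes 18.9% lay above and 15.6% below. Rhox5, an X-linked homeobox gene, read 417 and 718 in KO against 267 and 312 in WT (0.89), the helicase gene D1Pas1 had 0.70, and Prdm1, a repressor gene needed to specify germ cells, had -0.66. Without WT replicate 2 the median was 0.029.

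No target of p53 passed the test at 24 h. Of 35 tested genes KO lay above WT for 4 (11.4%) and below for 5 (14.3%), against 18.9% and 15.6% of all genes. The median was -0.045 (0.092 without KO replicate 2). Cdkn1a read 834 and 502 in KO against 931 and 669 in WT (-0.28), with overlap. Mdm2, the ubiquitin ligase gene that restrains p53, read 1076 and 1442 in KO against 1153 and 1126 in WT (0.13), and the cyclin gene Ccng1 had 0.12. Rrm2b, a ribonucleotide reductase subunit, had 0.54, and Psrc1 -0.47. The DNA repair and checkpoint list had a median of 0.033 over 28 genes, with KO below WT for 7 (25%) and above for 2 (7.14%), against 15.6% and 18.9% of all genes. Parp1, the sensor of strand breaks, read 519 and 575 in KO against 719 and 855 in WT (-0.51, adjusted p = 0.287). Apoptosis regulators had a median of 0.11 over 22 genes. KO lay above WT for 6 (27.3%) and below for 0, against 18.9% and 15.6% of all genes.

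Genes of G2/M and mitosis had a median of -0.13 over 30 tested genes, of which 7 had a positive difference. None passed, and KO lay below WT for 7 (23.3%) and above for 2 (6.67%), against 15.6% and 18.9% of all tested genes. Pttg1, which encodes securin, read 1685 and 1389.6 in KO against 3399.8 and 2194 in WT (-0.83). Kif18a, a mitotic kinesin gene, read 44.4 and 44.5 in KO against 85.6 and 89.4 in WT (-0.78). The spindle checkpoint kinase gene Ttk had -0.67 and Mki67, a marker of cycling cells, read 302 and 258 in KO against 408 and 421 in WT (-0.55). The median was -0.013 without WT replicate 1 and -0.28 without WT replicate 2.

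Sterol synthesis genes had a median of -0.19 over 18 tested genes, none called. KO lay below WT for 7 (38.9%) and above for 2 (11.1%), against 15.6% and 18.9% of all tested genes. The mevalonate kinase gene Mvk read 10.4 and 18.6 in KO against 38.4 and 45 in WT (-0.93), and Fdps read 333 and 370 in KO against 480 and 476 in WT (-0.43). The interferon list had a median of -0.17 over 22 genes, with Parp12 above and Ifitm1 and Ifi35 below. Ifitm1 read 495 and 878 in KO against 1250 and 1511 in WT. Neuroectoderm genes had a median of -0.21 over 9 tested genes of 16, and of 0.035 within run 3. KO lay below WT for 4 (44.4%) and above for 0, against 15.6% and 18.9% of all tested genes.

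**Figure D5:**
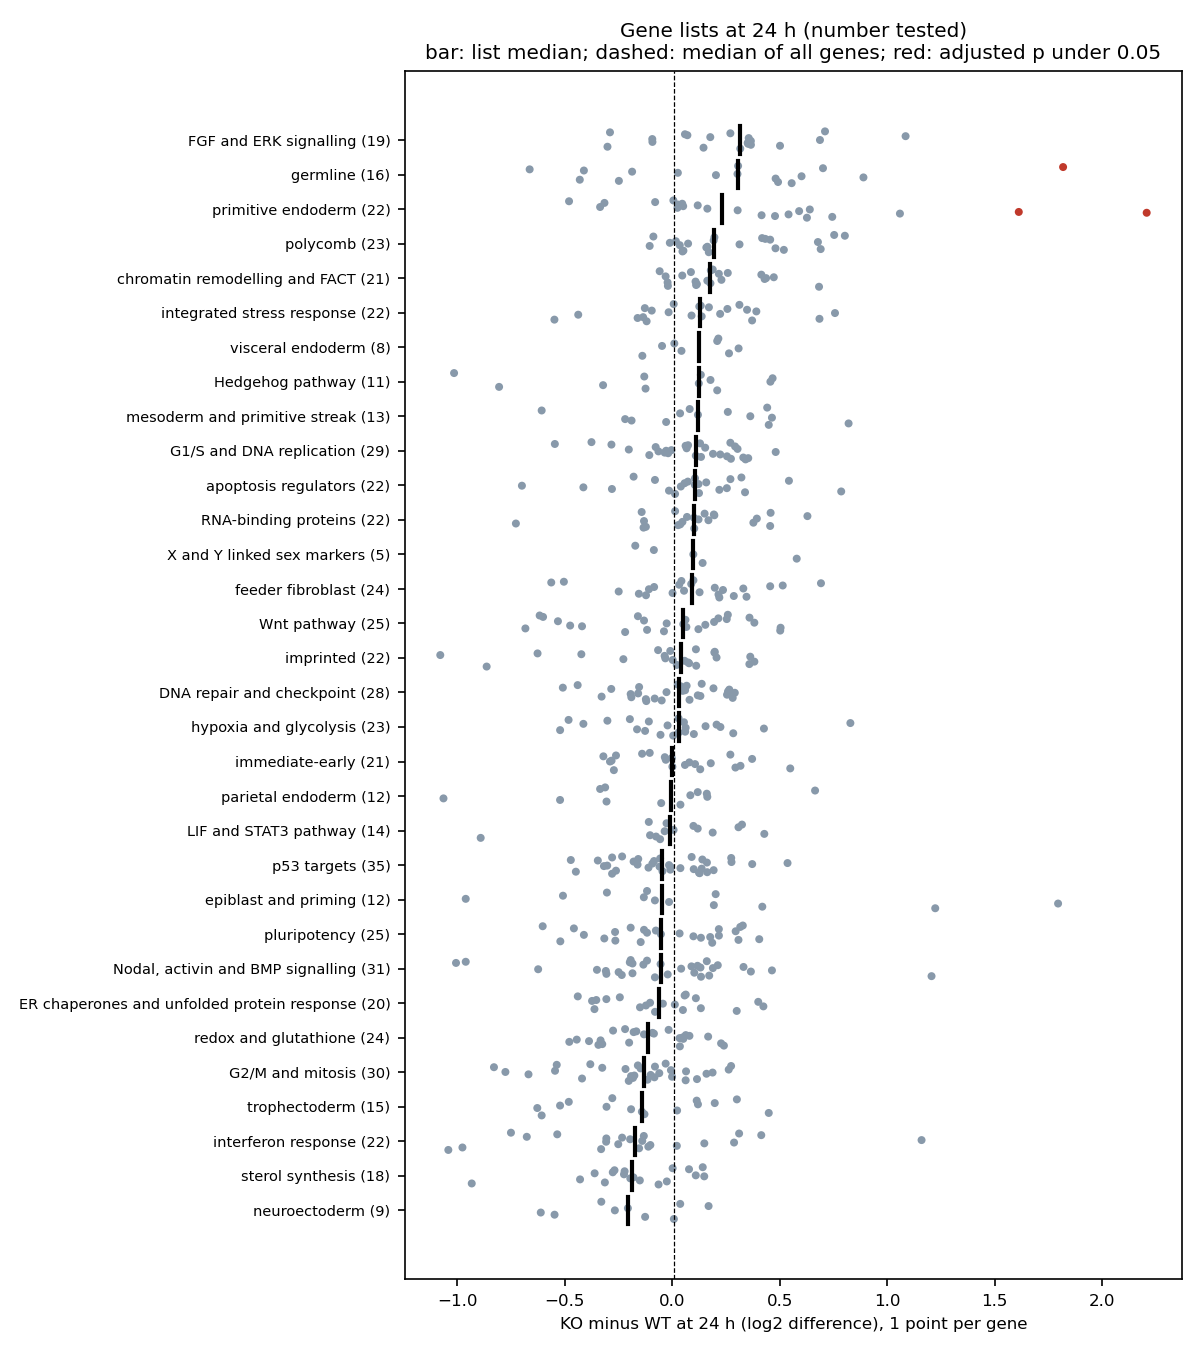
KO minus WT at 24 h (log2 difference, horizontal) for each tested gene of 32 lists, 1 point per gene, sorted by the list median (black bar), with the number tested in brackets; red points passed at an adjusted p under 0.05 and the dashed line is the median of all genes. List medians run from -0.21 (neuroectoderm) to 0.32 (FGF and ERK signalling), and the 3 red points are Srgn, Cubn and Ccnb1ip1.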

How the data were processed

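RNA of mouse ES cells had been hybridised to 16 one-colour arrays, 1 per sample. The authors deposited linear intensities, 1 for each probe set of an array, per the file headers of the values table; the values show that each array had been scaled to a trimmed mean of 100, leaving out 2% at each end. The sources used here do not give the summary software. Instrument files, per the file headers, served only to sort the arrays into hybridisation runs. Array number limits the precision.

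Control probe sets (64 of 22690) were dropped. By the platform annotation 20393 probe sets had 1 symbol, 691 several and 1606 none, and only those with 1 symbol were named. Log2(intensity + 16) was fitted in R 4.3.3 with limma 3.58.1 (6 group means, 16 arrays, eBayes with trend, 10 residual and 8.55 prior degrees of freedom). Probe sets were tested where at least 1 group mean exceeded the 30th percentile of all values (log2 4.80, intensity 11.9). The probe set of highest mean stood for its gene. The fit was tested on simulated data.

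Named were all called genes, the next 12 higher and 12 lower by difference (unadjusted p under 0.01, no overlap), in each list the largest differences and brightest members, and a fixed set of lineage, pluripotency and p53 genes. The genes and lists were chosen with earlier results of these data known. With 2 arrays against 2, an exact two-sided permutation test cannot go below p = 0.333. The alternatives were the added constant, the filter, quantile normalization, no trend, fewer arrays, the run or replicate number as a block, and leaving out each 24 h array. Symbols, gene order and promoters came from RefSeq (GRCm38.p6).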

Additional observations from a re-analysis of the deposited data

How the results depend on the processing

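The count of 11 called probe sets at 24 h depended on the setting, and the cause was not tested. It was 20 with the filter at the median of all values, 25 after quantile normalization, 7 with no intensity trend, 3 with only the 4 arrays at 24 h and 5 without the arrays numbered replicate 3. It was 23 with the hybridisation run as a block. Leaving out 1 array at 24 h gave 8 to 20, the highest without WT replicate 2. An alternative chosen after seeing the data, leaving out the 2 arrays of high 18S signal (WT growing replicate 1 and KO 2 h replicate 2), gave 8. The test of 24 h against growing cells called 0 to 1 when 1 array was left out. With the replicate block 35 were called, 16 higher and 19 lower. Same-numbered arrays had correlations of their deviations from group means from -0.092 to 0.29 over 36 pairs, 21 of them over 0.1. For the 24 h arrays of the same number the correlation was 0.26. Each of the 16 arrays correlated best, on average, with arrays of its own number. Deviations cancel out within a group, so the 2 arrays of a 24 h group mirror each other. The pairs and arrays are thus not separate evidence. The samples may still be paired by number, and the main fit does not use such a pairing. Among the called genes, the 24 next to them and the fixed set, to which these fits were applied, signs turned for 4 when 1 array at 24 h was left out, with ranges of -0.31 to 0.019 for Sox2, -0.64 to 0.079 for Cdkn1a and -0.081 to 0.34 for Mdm2 (each turned without KO replicate 2), and -0.21 to 0.83 for Klf4 (turned without KO replicate 1). The call of Supt16 was lost in 0 of 15 fits, that of Ccnb1ip1 in 1, those of Trh and Cubn in 4, that of Srgn in 5, those of Klhl13 in 5 and 8, that of Rpgrip1 in 8 and that of Nras in 9. The medians of 19 of 32 lists changed sign in some setting.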

Other observations

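Epithelial keratin genes, which mark trophectoderm and parietal endoderm, differed widely between replicates at 24 h. Krt8 read 163 and 479 in KO against 99.4 and 1155 in WT, and Krt18 read 202 and 557 in KO against 196 and 1202 in WT. Krt19 read 55.1 and 77.1 in KO against 69.1 and 324 in WT. For each of these genes replicate 2 was the higher array in both genotypes, and WT replicate 2 was the highest of the 4. None passed (adjusted p from 0.739 for Krt19 to 0.949 for Krt8), and the groups overlapped.

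Among imprinted genes, Plagl1, a zinc finger gene expressed from the paternal allele, read 232 and 251 in KO against 374 and 742 in WT (-1.08, adjusted p = 0.407), and its difference was -1.14 in growing cells and -1.20 at 2 h. Impact read 154 and 232 in KO against 373 and 243 in WT (-0.63). The median of 22 tested imprinted genes was 0.040. In the integrated stress response list, with a median of 0.13 over 22 genes, the folate enzyme gene Mthfd2 read 282 and 256 in KO against 177 and 131 in WT (0.76, adjusted p = 0.217), and the pseudokinase gene Trib3 read 128 and 96.3 in KO against 75.8 and 52.2 in WT (0.68). Neither passed, and neither pair of groups overlapped. Redox and glutathione genes had a median of -0.11 over 24 genes, none called. KO lay below WT for 6 (25%) and above for 1 (4.17%), against 15.6% and 18.9% of all tested genes.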
